A study of Xenopus tropicalis with 12 samples.

Results

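In the brain of *Xenopus tropicalis* tadpoles, 35 genes differed in mRNA level between thra mt-exon4 mutants and wild type (WT) while their mean level moved by no more than a fixed band after thyroid hormone (T3), in either genotype. Of these, 3 were higher and 32 were lower in mutants. They were chosen from measured values, out of 22820 gene models with an XLOC identifier, of which 15188 had a mean of 1 or more CPM (the count of a gene scaled to the same total of counts in every library). The rule asked for a mutant over WT ratio of mean CPM of at least 1.5, or of at most 0.67, both with T3 and in vehicle, and for all 3 mutant libraries to lie beyond all 3 WT libraries in each treatment. It also asked for a T3 over vehicle ratio between 0.8 and 1.25 in both mutant and WT. These ratios chose the genes, so for the 35 genes they are a description and not a finding. No gene of the 35 could be paired with a gene symbol, and they are called here by their identifiers.

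The study sequenced the preoptic area, thalamus and hypothalamus, dissected with the pituitary, at NF stage 54, an early step of metamorphosis. There were 3 libraries in each of 4 groups, namely thra mt-exon4 mutants given 5 nM T3 for 16 h, WT given the same, thra mt-exon4 mutants kept in vehicle (dilute NaOH) for 16 h, and WT kept in vehicle. Each library pooled the tissue of 5 tadpoles. The mutants were homozygous offspring of heterozygous parents of 1 TALEN line, whose lesion in exon 4 of thra is an inactivating one. The study obtained WT frogs from a supplier, but the parents of the sequenced WT tadpoles are not stated. The sources used here do not say that mutants and WT were siblings, so a difference of clutch or strain background and an effect of the receptor cannot be told apart in any mutant over WT ratio.

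The gene thra encodes thyroid hormone receptor alpha, the nuclear receptor that predominates in the tadpole brain before metamorphosis. It sits on its target genes with or without hormone. Without T3 the receptor binds corepressors and holds the target gene down, and T3 exchanges these for coactivators and switches the gene on. A direct target of this kind can change both with loss of the receptor and with T3, as thrb did here. Not every target need do so. In vehicle klf9 was higher in mutants by a log2 difference of 0.86 without passing the test (adjusted p = 0.146, edgeR). The study found a raised level in mutant vehicle for only a part of the genes that T3 induced in WT. By its own criteria, it also reported that most genes raised or reduced in mutant vehicle were not T3-regulated in WT. The 35 genes were picked for a difference between genotypes without a change after T3 beyond a fixed band. Whether any of them is a target of the receptor was not tested.

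The libraries held between 41012459 and 67603703 expected counts, with group medians of 57446272 in mutant T3, 46854779 in WT T3, 59240711 in mutant vehicle and 49486376 in WT vehicle. The hormone treatment was visible in thrb, the receptor beta gene, which averaged 76.8 CPM in mutant T3, 112 CPM in WT T3, 26.8 CPM in mutant vehicle and 13.0 CPM in WT vehicle. The neuronal gene snap25 was between 662 and 812 CPM, the radial glial gene slc1a3 between 775 and 1003 CPM and the hypothalamic peptide gene oxt between 72.5 and 209 CPM over the 12 libraries. With T3, oxt was lower in mutants by a log2 difference of -0.84 (adjusted p = 0.0071, edgeR) and the neuronal gene elavl3 by -0.26 (adjusted p = 0.0426, edgeR), whereas snap25, slc1a3 and the peptide gene avp did not pass the test. The skin gene krt12 did not pass it either, but was uneven, between 3.65 and 35.4 CPM within mutant T3 alone. The antigen presentation gene tap1 was called lower in mutants with T3 and averaged over treatments, but not in vehicle. The widest marker differences were in both genes of an inner ear list that could be paired: pla2g2e was between 0.143 and 0.219 CPM in mutant T3 and between 74.8 and 109 CPM in WT T3, and otop1 averaged 0.0133 CPM in mutant T3 and 2.27 CPM in WT T3 (adjusted p = 0.0003, edgeR). In vehicle pla2g2e was at 1.39 CPM or less and otop1 at 0.0341 CPM or less in all libraries. The part of these markers in the differences of the 35 genes was not tested. No identifier could be paired with thra itself or with any pituitary, oligodendrocyte, microglia, blood or muscle marker, so the genotype rests on the labels and the share of those cells was not tested. In bulk tissue fewer cells of a type and less RNA per cell cannot be told apart.

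The genotype criteria alone were met by 61 genes, 6 higher and 55 lower in mutants. The T3 band then kept 35 of them and set 26 aside, 3 higher and 23 lower. The band was wide against the T3 responses of this tissue, since 76.7% of the 15188 genes lay inside it in both genotypes. Mutant libraries lay below all WT libraries in both treatments for 2.79% of the 15188 genes, and above them for 1.69%.

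**Figure D1:**
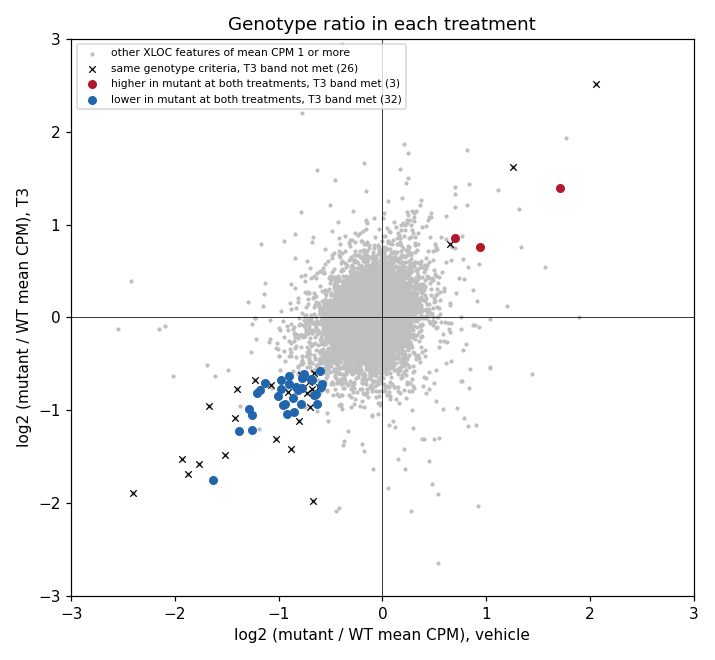
Mutant over WT ratio of mean CPM on log2 axes, in vehicle (x) and with T3 (y), for XLOC genes of mean CPM 1 or more, each point 1 gene. The 32 lower genes (blue) sit in the lower left and the 3 higher genes (red) in the upper right, as the rule requires, mixed with the 26 genes that met the genotype criteria but not the T3 band (crosses); 7 genes, 1 of the crosses among them, lie outside the axes.

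Among the 32 lower genes the mutant over WT ratio had a median of 0.575 with T3, between 0.297 and 0.668, and a median of 0.543 in vehicle, between 0.323 and 0.667. For 21 of the 32 the ratio was nearer to 1 with T3. The median ratio of all 15188 genes was also nearer to 1 with T3, 0.997 against 0.984 in vehicle. The rule used these ratios, so nothing is read from this count. A ratio of at most 0.5 was reached by 6 genes with T3, by 9 in vehicle and by 4 in both. These 4, XLOC_004789, XLOC_000467, XLOC_042574 and XLOC_001367, were also the 4 with the lowest ratio averaged over both treatments.

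XLOC_004789 was the most reduced gene. It was measured at 1.41, 1.58 and 1.03 CPM in mutant T3 and at 3.27, 4.95 and 5.33 CPM in WT T3. In vehicle it was at 1.15, 1.68 and 1.24 CPM in mutants and at 5.38, 3.63 and 3.58 CPM in WT. Every mutant library thus lay well below every WT library, and within each genotype the T3 and vehicle libraries overlapped. The log2 difference averaged over treatments was -1.68 ± 0.17 (SE, edgeR, n = 6 mutant and 6 WT libraries).

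XLOC_000467 had the most even values of the 4. Mutant T3 libraries held 5.96, 5.28 and 5.30 CPM, against 12.8, 12.2 and 13.8 CPM in WT T3. In vehicle the mutants held 3.56, 4.68 and 5.21 CPM, against 13.1, 10.4 and 11.6 CPM in WT. The averaged log2 difference was -1.29 ± 0.09 (SE, edgeR, 6 and 6 libraries). All 3 mutant T3 libraries were above all 3 mutant vehicle libraries, the T3 over vehicle ratio being 1.23 in mutants and 1.103 in WT.

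XLOC_042574 was one of 2 abundant genes in the set. It had 161, 184 and 109 CPM in mutant T3 and 283, 336 and 433 CPM in WT T3. In vehicle it had 141, 151 and 150 CPM in mutants and 531, 345 and 182 CPM in WT. The WT vehicle libraries spread nearly over the whole range of the gene, and the lowest of them, replicate 3, lay just below the highest mutant T3 library. The averaged log2 difference was -1.22 ± 0.21 (SE, edgeR, 6 and 6 libraries). XLOC_001367 was the gene of lowest mean level, 1.06 CPM. It had 0.976, 0.505 and 0.539 CPM in mutant T3, 1.79, 1.29 and 1.09 CPM in WT T3, 0.591, 0.671 and 0.666 CPM in mutant vehicle and 1.86, 1.63 and 1.12 CPM in WT vehicle. Its groups did not overlap, but the highest mutant and the lowest WT library were close with T3.

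A pair of further lower genes was chosen for display after their values were seen, XLOC_005134 as the other abundant gene and XLOC_000461 for its identifier, which is close to that of XLOC_000467. XLOC_005134 had 159, 137 and 112 CPM in mutant T3, 257, 298 and 255 CPM in WT T3, 76.7, 138 and 149 CPM in mutant vehicle and 285, 259 and 343 CPM in WT vehicle. No mutant library of this gene came near a WT library. XLOC_000461 had 3.29, 2.61 and 2.66 CPM in mutant T3, 6.07, 5.497 and 6.09 CPM in WT T3, 2.37, 3.54 and 2.97 CPM in mutant vehicle and 5.18, 4.96 and 6.66 CPM in WT vehicle. The averaged log2 difference was -1.12 ± 0.14 for XLOC_005134 and -0.97 ± 0.11 for XLOC_000461 (SE, edgeR, 6 and 6 libraries).

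**Figure D2:**
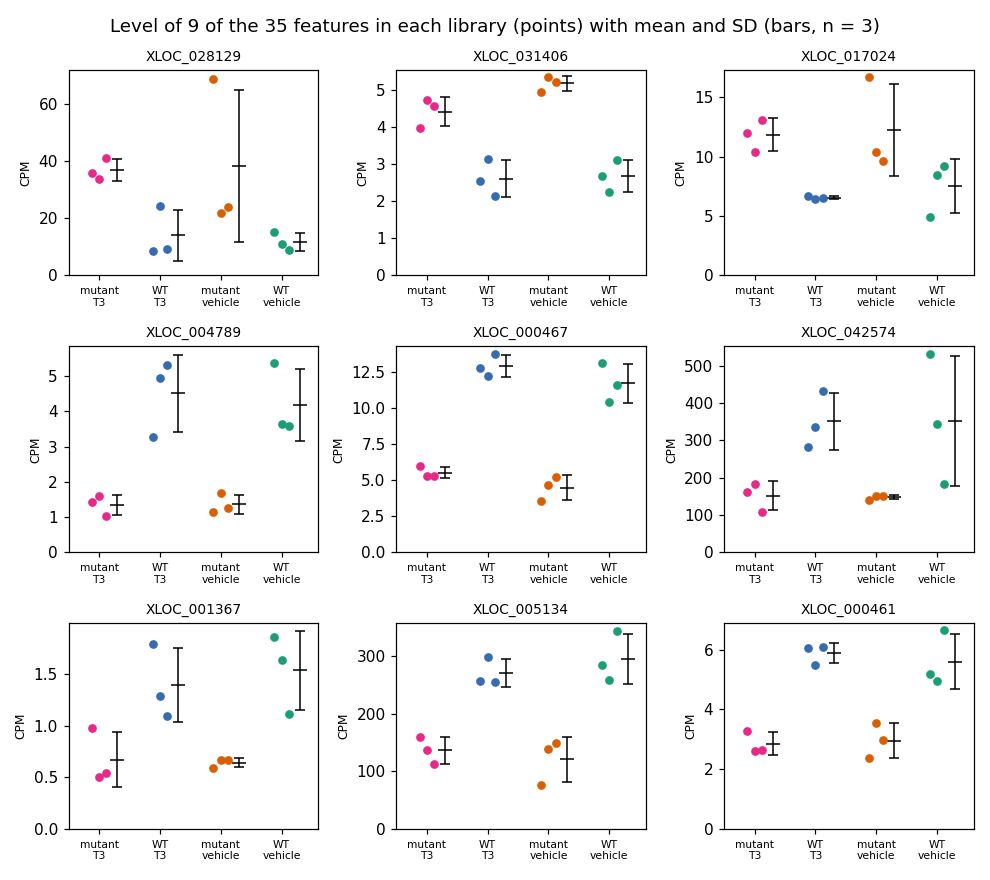
CPM of 9 of the 35 genes in each library (points) with the mean and SD of each group (bars, n = 3), for mutant T3, WT T3, mutant vehicle and WT vehicle from left to right; each y axis starts at 0. In the 3 genes of the top row mutants lie above WT, in the other 6 below; XLOC_028129 in mutant vehicle (21.8 to 68.8 CPM) and XLOC_042574 in WT vehicle (182 to 531 CPM) have the widest spread.

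The 3 higher genes differed in how even they were. XLOC_028129 had the largest ratio, 2.64 with T3 and 3.27 in vehicle, and the least even values. It was at 35.8, 33.9 and 41.1 CPM in mutant T3 and at 8.47, 24.2 and 9.32 CPM in WT T3. In vehicle it was at 68.8, 21.8 and 23.9 CPM in mutants and at 15.1, 11.1 and 8.76 CPM in WT. A single mutant vehicle library held 68.8 CPM, and 1 WT T3 library was above 2 of the mutant vehicle libraries, so the 6 mutant and the 6 WT libraries overlapped when both treatments were pooled. XLOC_031406 was even, with 3.98, 4.73 and 4.57 CPM in mutant T3, 2.55, 3.14 and 2.14 CPM in WT T3, 4.96, 5.37 and 5.24 CPM in mutant vehicle and 2.69, 2.26 and 3.13 CPM in WT vehicle. All 3 of its mutant T3 libraries were below all 3 mutant vehicle libraries. XLOC_017024 had 12.02, 10.4 and 13.1 CPM in mutant T3, 6.69, 6.45 and 6.51 CPM in WT T3, 16.7, 10.4 and 9.65 CPM in mutant vehicle and 4.94, 8.44 and 9.24 CPM in WT vehicle. Its WT T3 libraries were nearly identical, whereas in vehicle the lowest mutant and the highest WT library almost met. The averaged log2 differences were 1.58 ± 0.32 for XLOC_028129, 0.87 ± 0.11 for XLOC_031406 and 0.80 ± 0.16 for XLOC_017024 (SE, edgeR, 6 and 6 libraries).

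Across both treatments, the 6 mutant libraries lay beyond all 6 WT libraries for 29 of the 35 genes, 27 of them lower. The genotype criteria in each treatment and the T3 band leave little room for overlap. The share over all genes was not counted, so nothing is read from this number. The other 6 were XLOC_028129, XLOC_042574, XLOC_013220 and, named after their values were seen, XLOC_023296, XLOC_043232 and XLOC_002666. The width of the gap between the groups differed from gene to gene. For the lower genes the highest mutant library was at a median of 0.761 of the lowest WT library with T3 and 0.724 in vehicle. It was at most 0.8 of it in 21 and 22 of the 32 genes, and the gap was narrower in the rest. The ratio and non-overlap criteria shape these gaps, and their share over all genes was not counted. Nothing is read from them either.

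**Figure D3:**
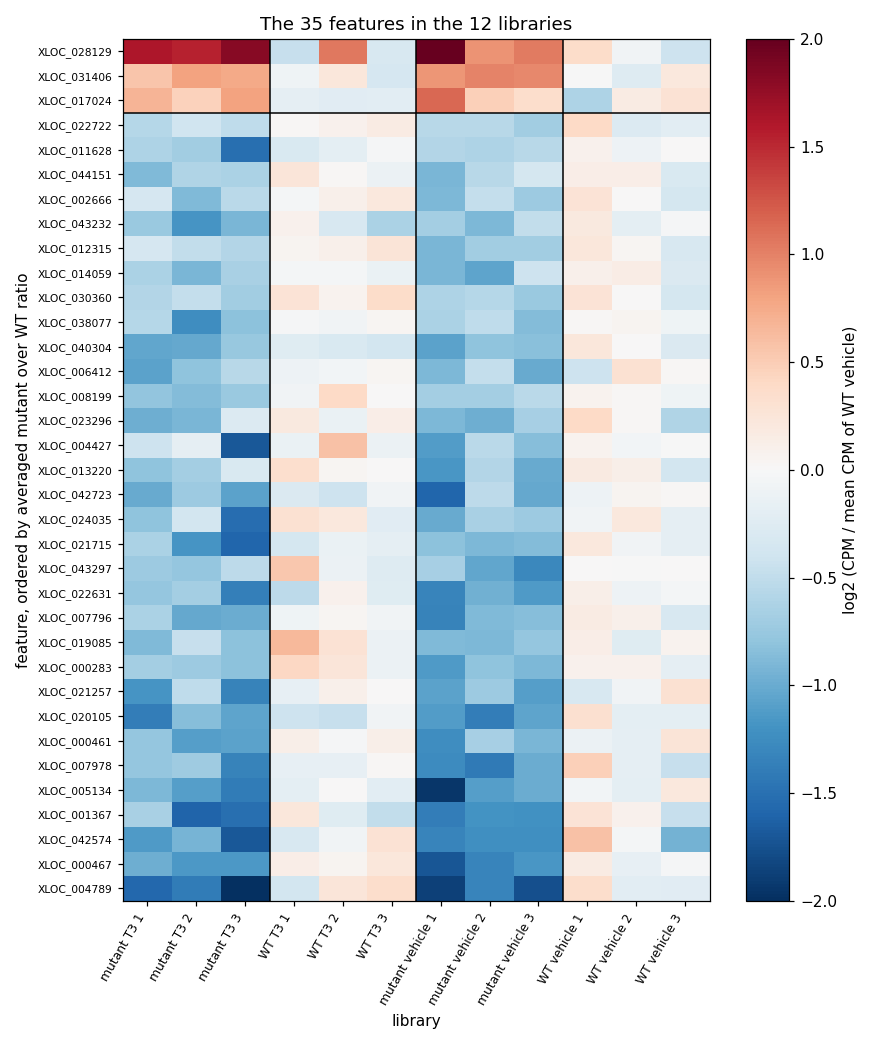
Log2 of CPM over the mean CPM of WT vehicle for each of the 35 genes (rows, from the highest to the lowest averaged mutant over WT ratio) in each of the 12 libraries (columns), with colours capped at 2 and -2; the horizontal line parts the 3 higher from the 32 lower genes. All 32 lower genes are below the WT vehicle mean in all 6 mutant libraries, which the rule requires in mutant vehicle and leaves little room against in mutant T3. In WT vehicle replicate 3, 24 of the 32 are below that mean.

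The level of the lower genes as a group differed between libraries of 1 group. Set against the mean of WT vehicle, the median log2 level of the 32 genes was between -0.94 and -0.77 in mutant T3, between -0.04 and 0.02 in WT T3 and between -1.01 and -0.79 in mutant vehicle. In WT vehicle itself it was 0.15 in replicate 1, -0.0042 in replicate 2 and -0.18 in replicate 3. Replicate 1 was the highest of the 3 WT vehicle libraries for 22 of the 32 genes and replicate 3 the lowest for 18. Among mutant vehicle libraries replicate 1 was the lowest for 17. These ranks were not counted over all genes, so nothing is read from them. The median log2 level of all 15188 genes was 0.009, -0.0105 and 0.0045 in replicates 1, 2 and 3 of WT vehicle. Over all 15188 genes, the share below the WT vehicle mean was 46.9%, 54.7% and 48.9% in replicates 1, 2 and 3 of WT vehicle. In mutant vehicle it was 59.4%, 56.4% and 54.5% in replicates 1, 2 and 3. Without WT vehicle replicate 3 the same rule found 10 higher and 52 lower genes, of which 3 and 28 were among the 35. Leaving out replicate 1 of the same group gave 1 higher and 28 lower, and leaving out replicate 2 gave 5 and 31. What sets replicates 1 and 3 of WT vehicle apart was not tested. Together the 35 genes took 0.0519% to 0.0618% of the counts of a mutant library and 0.0917% to 0.133% of those of a WT library. The rule chose 32 lower genes, with the 2 most abundant of the 35 among them, so nothing is read from these shares.

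The T3 over vehicle ratio of the 35 genes had a median of 1.04 in mutants, with 20 above 1, and of 0.994 in WT, with 17 above 1. It was within 10% of 1 for 18 genes in mutants, for 20 in WT and for 12 in both. The change after T3 was called for 0 of the 35 genes in mutants, where 0.254% of all 22018 features tested (those with new_exon identifiers included) were called, and for 0 in WT, where 10.9% were called (edgeR's quasi-likelihood test, Benjamini-Hochberg adjusted p under 0.05). The band of the rule keeps strong responses out, so nothing is read from these counts. At an unadjusted p under 0.05 there were 2 genes in mutants, XLOC_000467 and XLOC_012315, against 9.76% of all features, and 1 in WT, XLOC_040304, against 26.8%. limma-voom and DESeq2 also called 0 in either genotype. Over all features they called 41 and 393 in mutants and 2165 and 3440 in WT. The band limits these counts too, and nothing is read from them.

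These data did not show that the genes are without a T3 response. The log2 T3 response had a median SE of 0.20 in mutants and 0.19 in WT, while the band ends at a log2 value of 0.32. The response with 2 SE on either side stayed inside the band for 1 gene in mutants, XLOC_040304, for 1 in WT, XLOC_038077 (named after its values were seen), and for 0 in both. XLOC_040304, named after its values were seen, had a log2 response of -0.05 ± 0.12 in mutants and -0.30 ± 0.12 in WT (SE, edgeR, n = 3 T3 and 3 vehicle libraries). Its WT T3 libraries were at 52.2, 50.2 and 47.9 CPM and its WT vehicle libraries at 72.1, 62.4 and 50.8 CPM, which overlap. In mutants it had 30.1, 30.3 and 36.7 CPM with T3 and 29.5, 35.4 and 34.5 CPM in vehicle.

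The T3 and vehicle libraries did not overlap in mutants for 4 of the 35 genes. XLOC_000467 and XLOC_012315 were higher with T3, XLOC_031406 and XLOC_008199 were lower with T3. Of all 15188 genes 9.89% were higher and 6.73% lower in this way. XLOC_012315, chosen after its values were seen, had 23.4, 20.9 and 19.6 CPM in mutant T3 and 15.6, 18.2 and 18.2 CPM in mutant vehicle, a ratio of 1.23, against 30.6, 31.6 and 35.3 CPM in WT T3 and 34.5, 30.1 and 23.5 CPM in WT vehicle. Its mutant libraries with T3 therefore came closer to the WT range without reaching it. XLOC_008199, also chosen after its values were seen, had 2.20, 2.10 and 2.30 CPM in mutant T3 and 2.40, 2.40 and 2.63 CPM in mutant vehicle. In WT the T3 and vehicle libraries overlapped for all 35 genes, and 18.6% of all genes were higher and 19.6% lower with T3 without overlap. Only the 35 were held to the T3 band, so nothing is read from the counts of overlap in either genotype. The T3 response of mutants minus that of WT was called for 0 of the 35 genes, with 0 at an unadjusted p under 0.05, against 0.527% and 14.4% of all features (edgeR). Its log2 size was between -0.32 and 0.40. The band limits the T3 response in both genotypes and so the size of their difference, and nothing is read from these counts.

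**Figure D4:**
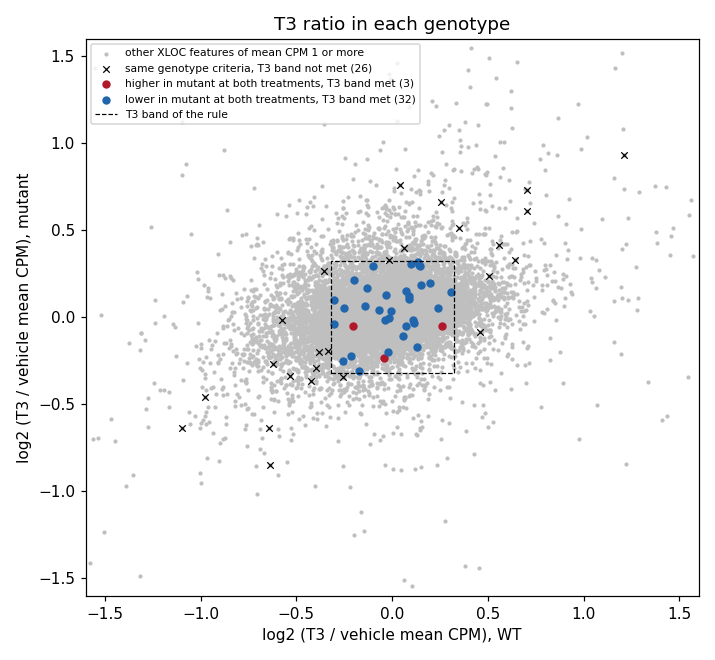
T3 over vehicle ratio of mean CPM on log2 axes, in WT (x) and in mutants (y), for XLOC genes of mean CPM 1 or more, each point 1 gene; the dashed square is the band of the rule, from 0.8 to 1.25. The 35 genes (red and blue) fill the square, which also holds 76.7% of all genes, and the crosses are the 26 genes set aside by it; 52 genes, 1 of the crosses among them, lie outside the axes.

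In the fit of all 12 libraries, the mutant over WT difference was called for 25 of the 35 genes with T3, 2 higher and 23 lower, where 6.88% of the 22018 features were called (3.7% higher and 3.18% lower). In vehicle it was called for 13, 1 higher and 12 lower, where 0.577% were called (0.164% higher and 0.413% lower). Averaged over treatments it was called for 34, the exception being XLOC_004427, where 6.34% were called, and the 3 higher and 31 lower stood beside 3.38% and 2.96% of all features. The rule used this contrast, so nothing is read from these counts either. Both treatments called 13 genes, T3 alone called 12, vehicle alone called 0 and neither called 10. The median log2 difference of the 32 lower genes was -0.79 with T3 and -0.86 in vehicle, against 0.01 and -0.0030 over all features tested. The calls within 1 treatment depended on single libraries, over all features as well as among the 35 genes. Of the 35, the count with T3 was 15, 17 and 12 when replicate 1, 2 or 3 of mutant T3 was left out. It was 12, 16 and 10 when replicate 1, 2 or 3 of WT T3 was left out. Over all features these counts were 712, 661 and 523, and 375, 738 and 293, against 1515 with all libraries. Of the 35, the count in vehicle was 4, 8 and 5 when replicate 1, 2 or 3 of mutant vehicle was left out. It was 5, 5 and 21 when replicate 1, 2 or 3 of WT vehicle was left out. Over all features these counts were 33, 47 and 65, and 45, 41 and 504, against 127.

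The T3 libraries and the vehicle libraries are separate, so a genotype difference chosen in either set can be looked at in the other, before the T3 band is applied. In vehicle, 239 genes were lower in mutants by the ratio and non-overlap criteria. Of these, 55 (23.0%) met the same criteria in the T3 libraries, where 1.86% of all 15188 genes did. The opposite criteria, higher in mutants with T3, were met by 2 of the 239, where 1.55% of all genes met them. A mutant over WT ratio below 1 with T3 was seen in 83.7% of the 239, against 50.8% of all genes, and their median ratio was 0.7998 with T3, against 0.600 in the libraries that chose them. In an edgeR fit of the 6 T3 libraries alone, 65 of the 238 that were tested (27.3%) were called lower, against 9.79% of all 15186 genes tested. Chosen the other way round, 55 of the 283 genes lower with T3 (19.4%) met the criteria in vehicle, against 1.57% of all genes. The opposite criteria in vehicle were met by 4 of the 283, against 0.230% of all genes. In an edgeR fit of the 6 vehicle libraries alone, 12 of the 282 tested (4.26%) were called lower, against 0.138%. The 55 genes are those that the rule itself kept before the T3 band, so their number is a description. Both sets compare the same mutant line with WT tadpoles whose parents are not stated, so a difference of clutch or strain background could be present in both.

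For genes higher in mutants the same counts were smaller. In vehicle 35 genes met the criteria for higher, which are not the 35 of the rule. Of these, 6 (17.1%) met them with T3, against 1.55% of all genes. However, 4 met the opposite criteria, lower in mutants with T3, against 1.86% of all genes. A ratio above 1 with T3 was seen in 51.4% of them, against 49.2% of all genes, and their median ratio was 1.004. An edgeR fit of the T3 libraries alone called 7 of these 35 higher (20%), against 8.78%. Of the 236 chosen as higher with T3, 6 (2.54%) met the criteria in vehicle, against 0.230%, and 2 met the opposite ones, against 1.57%. An edgeR fit of the vehicle libraries alone called 0 of the 236 higher, where 0.0329% of all genes were called. Whether the lower and the higher genes recur at different rates was not tested.

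The 35 genes were mostly of low level. Their mean over the 12 libraries had a median of 4.52 CPM, against 23.8 CPM for the 15188 genes, and 18 of the 35 (51.4%) were under 5 CPM, against 19.4%. Only XLOC_042574 and XLOC_005134 were above 100 CPM. The lowest count of any of the genes in any library was 29, and 23 genes had more than 100 counts in every library, so all 35 passed the filter on low counts. Their gene models were also short, with a median of 2480 bases against 3939 bases, and 12 of 35 (34.3%) were under 1500 bases, against 14.4%. The 26 genes set aside by the T3 band were much the same, with a median of 3.19 CPM, 61.5% under 5 CPM, a median length of 2594 bases and 23.1% under 1500 bases, so neither trait is particular to the 35. The shortest was XLOC_000283, 278 bases, and the longest XLOC_022631, 7632 bases, both named after their values were seen. Compared per length, in TPM (the level RSEM scales to gene length and library), XLOC_005134 (277 TPM) and XLOC_042574 (267 TPM) had the highest levels and XLOC_002666 (0.856 TPM) the lowest. The part of level and length in the choice of the genes was not tested.

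RSEM shares a read that fits several gene models between them, which leaves counts that are not whole numbers. In 5 of the 35 genes (14.3%) every count was whole to within 0.005, against 1.32% of all 15188 genes, and these were XLOC_004789, XLOC_001367 and XLOC_022722 and, named after their values were seen, XLOC_004427 and XLOC_014059. To within 0.05 it was 6 genes (17.1%), XLOC_044151 being the other one, also named after its values were seen, against 2.14%. Of the 26 genes set aside by the T3 band, 2 (7.69%) had every count whole to within 0.005. In 27 of the 35 (77.1%) most counts were not whole, against 91.7% of all genes and 65.4% of the 26. Neither trait is therefore particular to the 35. For those 27, part of the reads could also come from another gene model, such as a near-identical copy. How far this affected their levels was not tested.

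A symbol could be paired with 0 of the 35 genes, with 4 of the 26 genes set aside by the T3 band, and with 9.77% of the 15188 genes. The symbols come from a list of genes that responded to T3 in WT, of which a part was used. Inside the T3 band 7.51% of the 11654 genes had a symbol and outside it 17.2% of 3534. Identifier numbers lie close where genes do, to a point: of paired identifiers 1 or 2 numbers apart 99.2% were on the same chromosome, and of those 31 to 100 apart 14.5%. Among the 35 genes only XLOC_000461 and XLOC_000467 were within 10 numbers of each other, 6 apart, and both were lower in mutants. For 12 genes a paired identifier lay within 10 numbers, and these neighbours were spread over 9 chromosomes. The genes were thus not gathered in 1 stretch of identifiers.

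The thresholds cut through a continuous range. Among lower genes the ratio with T3 was 0.668 for XLOC_022722, just inside, and 0.672 for XLOC_038934, just outside, and in vehicle it was 0.667 for XLOC_011628 and 0.681 for XLOC_022033. The T3 over vehicle ratio in mutants was 1.25 for XLOC_013220, just inside, and 1.26 for XLOC_020272, just outside, and in WT it was 1.24 for XLOC_019085 and, at the other end of the band, 0.780 for XLOC_002302. The level was 1.06 CPM for XLOC_001367, just inside, and 0.802 CPM for XLOC_013621, just outside. Among higher genes the ratio with T3 was 1.69 for XLOC_031406 and 1.49 for XLOC_018862, just outside, and in vehicle it was 1.63 for XLOC_017024 and 1.44 for XLOC_040218. The WT T3 over vehicle ratio was 1.20 for XLOC_028129 and 0.792 for XLOC_028433, just outside. Of the genes lower in mutants, 26 missed the rule only by the ratio with T3, 17 only by the ratio in vehicle, 5 and 12 only by overlap with T3 and in vehicle, 5 and 6 only by the band in mutants and in WT, and 8 only by level.

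Since none of the 35 genes has a symbol, the listed genes show only the setting in which they were found. The 19 lists of 215 symbols used for reference (T3 response, hormone transport, receptor cofactors, cell cycle and cell type markers) named 30 tested features, and 0 of them were among the 35. Of 10 tested features for T3 response genes of the study, 0 were higher and 6 lower in mutants with T3, and 3 were higher and 0 lower in mutants in vehicle, where 3.7%, 3.18%, 0.164% and 0.413% of all features were called (edgeR). The study named some of these genes from the same libraries, so nothing is read from these counts.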

How the data were processed

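RNA of 12 pooled brain samples, 3 per group, was sequenced as single-end 50-nt Illumina reads. The authors aligned reads to genome v4.1 by Bowtie, with RSEM counting over a gene model named MNHN (tool versions not given in the sources used here); CASAVA 1.8.2 and cutadapt stand in the submitters' processing notes. The authors deposited expected counts per feature, without normalization. The deposited TPM values and feature lengths served for levels per length, and the deposited FPKM values were not used. All columns belonged to the 12 libraries.

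CPM was the expected count over the sum of its library, new_exon features (4.18% to 4.43% of counts) included. For tests, counts were rounded, scaled by TMM and filtered with filterByExpr, and 22018 features were fitted in 1 model of 4 groups with edgeR 4.0.16 (quasi-likelihood, R 4.3.3), with Benjamini-Hochberg adjustment over all features and a threshold of 0.05. The SE is the log2 difference over the square root of its F value. limma 3.58.1 (voom), DESeq2 1.42.0, no filter, median-of-ratios scaling, fits of 2 groups, a replicate block, other settings of the rule and each library left out in turn were the alternatives. The steps were tested on simulated counts. Figures used matplotlib 3.10.9 in Python 3.11.15.

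The members and the lists were chosen with earlier results of these data known. The genes named are the 4 with the largest averaged difference in each direction (3 exist among higher genes) and those next to each threshold; others are marked where they appear. Symbols came from a supplementary table of the study, used in part. Libraries are pools of tadpoles, so p-values measure the spread between pools.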

Additional observations from a re-analysis of the deposited data

How the results depend on the processing

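The counts by the rule depended on its settings. With genotype ratios of 2 or 0.5 it found 1 higher and 4 lower genes, with T3 ratios between 0.9 and 1/0.9 it found 0 and 12, with no demand on overlap it found 6 and 50, and with a mean CPM of at least 5 it found 15 lower genes. TMM library sizes gave 3 and 30, 29 of the lower ones shared. With 1 library left out the rule found 1 to 10 higher and 28 to 52 lower genes. Of the 35 genes, the vehicle difference between mutant and WT was called for 25 with DESeq2, 5 in a fit of the 2 groups only, and 4 to 21 with 1 library left out. The T3 difference was called for 10 to 30 and the averaged one for 31 to 35 with 1 library left out. T3 in WT called 0 or 1 of them, 1 without WT vehicle replicate 3, and T3 in mutants and the difference of responses called 0 under every alternative run. The band keeps strong responses out of the 35 genes, so nothing is read from these counts of T3 calls. Over all features the vehicle difference was called for 524 with DESeq2, 28 in the 2-group fit, and 33 to 504 with 1 library left out, against 127. The T3 difference was called for 2685 with DESeq2 and 3134 in the 2-group fit, against 1515, the averaged one for 2460 with DESeq2, against 1396, T3 in mutants for 393 with DESeq2, 114 with no filter and 30 in the 2-group fit, against 56, and the difference of responses for 655 with DESeq2, against 116. With 1 library left out, the T3 difference was called for 293 to 2655 features, the averaged one for 571 to 3244, T3 in WT for 824 to 2528, against 2399, T3 in mutants for 25 to 179 and the difference of responses for 38 to 129. The cause was not tested. XLOC_004427 was called under DESeq2, limma-voom, no filter, the replicate block and 2 of the 12 libraries left out. XLOC_022722, XLOC_023296, XLOC_043232 and XLOC_002666 lost the averaged call without 2 to 5 single libraries each. None of the 23 genes of the set whose averaged difference was recomputed turned its direction. The rule asked for non-overlap in that direction in each treatment, so nothing is read from this. The genes just outside a threshold, XLOC_038077 and XLOC_044151 were not among the 23.

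The labels do not say whether same-numbered replicates share more than a number. Correlations of their deviations were between -0.12 and 0.14, and those of differently numbered replicates between -0.23 and 0.26. With the replicate number as a block, 10 of the 35 genes were called in vehicle, 22 with T3 (20 of them shared) and 35 on average, with 0 for T3 in either genotype and for the difference of responses. Over all features the block called 76 in vehicle, 1070 with T3 and 975 on average, against 127, 1515 and 1396 without it. It called 1852 for T3 in WT, 30 for T3 in mutants and 75 for the difference of responses.

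With 3 pools a group, the T3 response with 2 SE on either side stayed inside the band in both genotypes for 0 of the 35 genes. The share of sequencing depth in these errors was not tested.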

Other observations

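The new_exon features, which the rule leaves out, held 1970 features of mean CPM 1 or more. The genotype criteria were met by 1 higher and 1 lower of them in mutants, and the whole rule by 0.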
